A study of Astyanax mexicanus with 18 samples.

Results

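Phenylalanine and tyrosine are broken down in the liver by a short chain of enzymes, and the genes of this chain were examined in the livers of cavefish and surface fish of one species. Phenylalanine is turned into tyrosine by phenylalanine hydroxylase with the cofactor tetrahydrobiopterin, which is then regenerated. Tyrosine loses its amino group, and the product is oxidised by 4-hydroxyphenylpyruvate dioxygenase to homogentisate, whose ring is opened and finally cut into fumarate and acetoacetate. The chain is best known in human liver, where loss of its steps causes phenylketonuria, alkaptonuria and the tyrosinaemias.

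The genes were chosen by symbol, as the rows named hpd, hpda or hpdb, pah, tat, hgd, gstz1, fah, pcbd1 or a form of qdpr. This gave 8 of 27420 genes in the table, namely pah, qdpra, pcbd1, tat, hpda, hpdb, hgd and fah. The gene for the isomerase step, gstz1, was not analysed here. One of the 8, hpdb, was in addition selected on its measured levels, because it was near 0 in surface fish and high in Pachón cavefish. Its differences between the populations are therefore given as a description, without a test.

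Liver RNA came from the Pachón population, blind cavefish of Astyanax mexicanus, and from the eyed surface form of that species, all 4 months old and laboratory-raised. There were 4 groups of 3 libraries: refed Pachón, starved Pachón, refed surface and starved surface fish. All were fasted for 4 days, and dissection of the refed fish followed 3 hours after a meal of 10 mg. Per the labels 3 fish of each population were refed, and the sex of the fish and the batch of the libraries are not given there. The values were TPM, a transcript abundance scaled for gene length and library total. The depth of the libraries is unknown, since TPM keep no trace of it. Between 10952 and 12123 genes reached 1 TPM in a library. The summed TPM of 12 hepatocyte marker genes was 141257 to 225150 in 11 libraries and 78240 in starved surface replicate 2. In that library fabp10a was at 27975 TPM, against 52036 to 138032 TPM in the others, and hpx, tfa, cp and c3a.1 were also lowest. The markers ambp, apoa1b, apobb.1, fgb, fgg and ttr lay within the range of the other libraries there. In bulk tissue, fewer cells of a type and less RNA per cell cannot be told apart.

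All 8 genes reached 1 TPM in at least 3 libraries, the minimum for testing, but hpdb did so mainly through its Pachón libraries. Together they took 1.05% to 1.46% of all TPM in refed Pachón livers, 0.462% to 0.978% in starved Pachón livers, 0.627% to 1.24% in refed surface livers and 0.535% to 1.34% in starved surface livers. The most abundant of them was hpda in every library. Of 5 comparisons fitted, the meal comparisons set refed against starved fish within each population. The population comparisons set Pachón against surface fish, once among starved and once among refed animals. The fifth tested whether the meal responses differed. Comparisons that share a group are not independent of each other. Fold changes are log2 values on the log2(TPM + 1) scale with the standard error (SE) of the fit. A gene is said to have risen, fallen or been called where its limma p, adjusted over 13157 genes, was under 0.05.

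**Figure D1:**
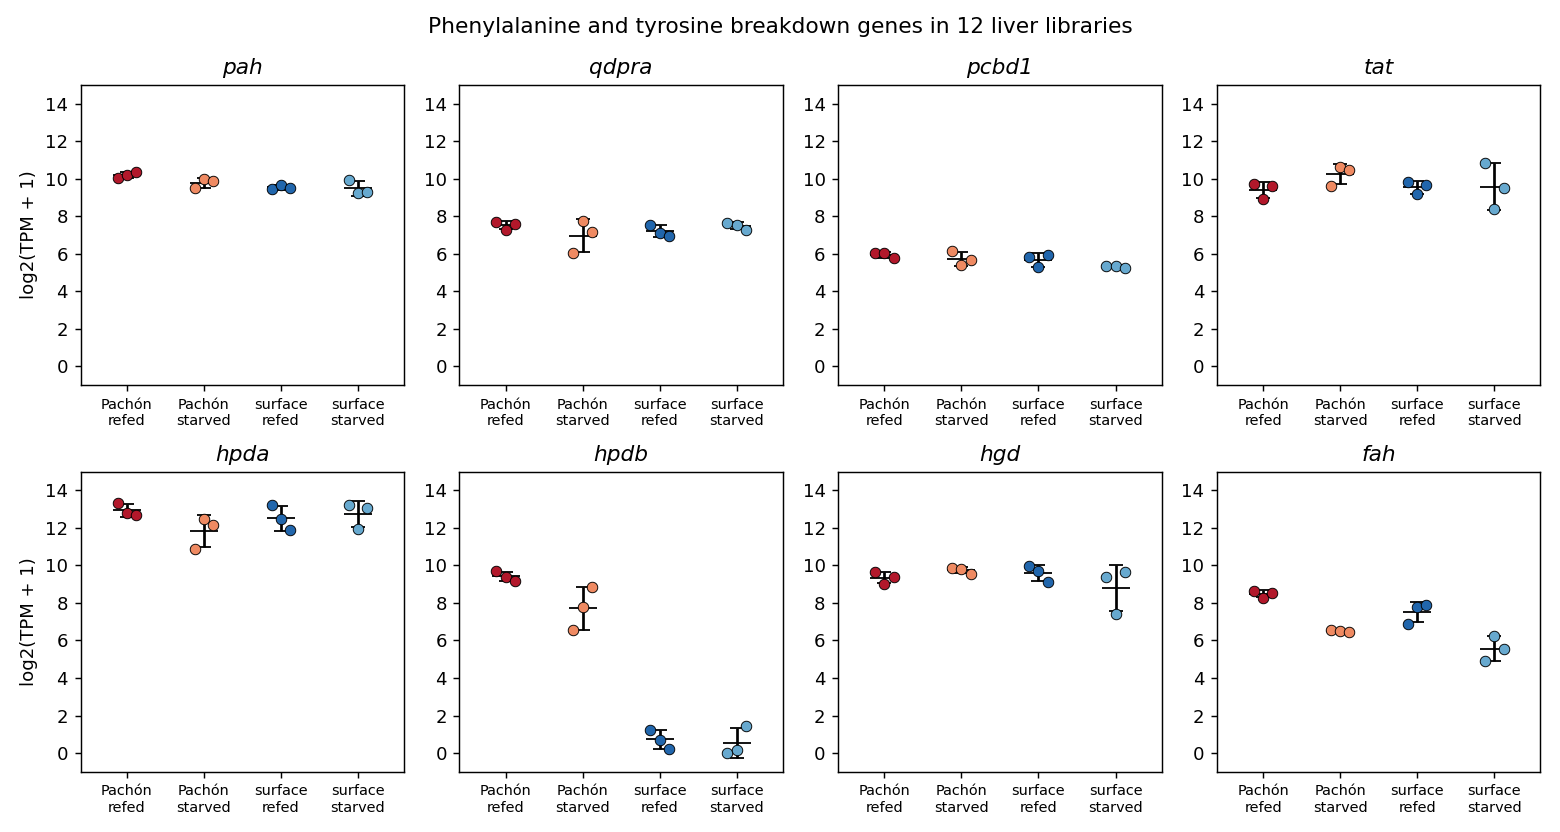
Level of each gene in each of 12 liver libraries, on the y axis as log2(TPM + 1), with the 4 groups on the x axis; points are libraries, and the black marks are the mean ± SD of 3 libraries. The gene hpdb is at 92.5 to 821 TPM in Pachón libraries and 0 to 1.74 TPM in surface libraries, while fah is higher in refed than in starved fish of both populations.

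The dioxygenase step is served by a pair of paralogues, hpda (ENSAMXG00000015913) and hpdb (ENSAMXG00000015502). Expression of hpdb was 821, 667 and 585 TPM in refed Pachón livers and 92.5, 217 and 455 TPM in starved Pachón livers. In surface fish it was 1.35, 0.62 and 0.18 TPM in refed livers and 0, 0.12 and 1.74 TPM in starved livers. The lowest Pachón library thus stood far above the highest surface library, and the surface values are close to or at 0. Group means were 691 ± 120 TPM in refed Pachón, 255 ± 184 TPM in starved Pachón, 0.717 ± 0.591 TPM in refed surface and 0.62 ± 0.972 TPM in starved surface livers (SD, n = 3 each). Refed and starved libraries did not overlap in Pachón cavefish and overlapped in surface fish. The population differences on the log2 scale were 7.18 among starved and 8.70 among refed fish. With 0.1 TPM in place of 1 TPM added before the logarithm they were 9.25 and 10.01.

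The paralogue hpda did not share this pattern. Its levels were 10441, 7143 and 6543 TPM in refed Pachón livers and 1850, 5728 and 4604 TPM in starved Pachón livers. Refed surface livers had 9403, 5699 and 3766 TPM and starved surface livers 9631, 3955 and 8510 TPM. Pachón and surface libraries overlapped for hpda in both feeding states. The population difference of hpda was -0.91 ± 0.48 among starved fish (limma adjusted p = 0.235) and 0.42 ± 0.48 among refed fish (limma adjusted p = 0.598).

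As a share of hpda and hpdb transcripts together, hpdb made up 7.29%, 8.54% and 8.21% in refed Pachón livers and 4.76%, 3.65% and 8.99% in starved Pachón livers. In surface livers its share was between 0% and 0.0204%. So hpda gave most of the dioxygenase transcript in both populations. The summed TPM of the pair was 7128 to 11262 in refed Pachón, 1942 to 5945 in starved Pachón, 3766 to 9404 in refed surface and 3955 to 9631 in starved surface livers. These sums overlapped between the populations in both feeding states. Reads were single and 50 bases long per the labels, and how reads shared by the paralogues were divided between them was not tested.

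The meal comparison was not used to choose hpdb. In Pachón livers hpdb rose by 1.70 ± 0.54 (limma adjusted p = 0.0323), with all 3 refed libraries above all 3 starved ones. This call did not hold in 10 of 22 alternatives, among them leaving out starved Pachón replicate 1, 2 or any refed Pachón replicate (limma adjusted p between 0.00939 and 0.12 over the fits that omit 1 library). Without starved Pachón replicate 1, the lowest of that group, the change was 1.12 ± 0.48. In surface livers only 2 of 6 libraries reached 1 TPM for hpdb. Its fitted change there, 0.18 ± 0.54, rests on levels near 0 and cannot show whether it responded to the meal. The change of hpda after the meal was 1.11 ± 0.48 in Pachón livers (limma adjusted p = 0.104) and -0.23 ± 0.48 in surface livers (limma adjusted p = 0.787). Refed and starved libraries did not overlap for hpda in Pachón cavefish and overlapped in surface fish. The difference between these responses was 1.33 ± 0.68 and was not called (limma adjusted p = 0.346).

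**Figure D2:**
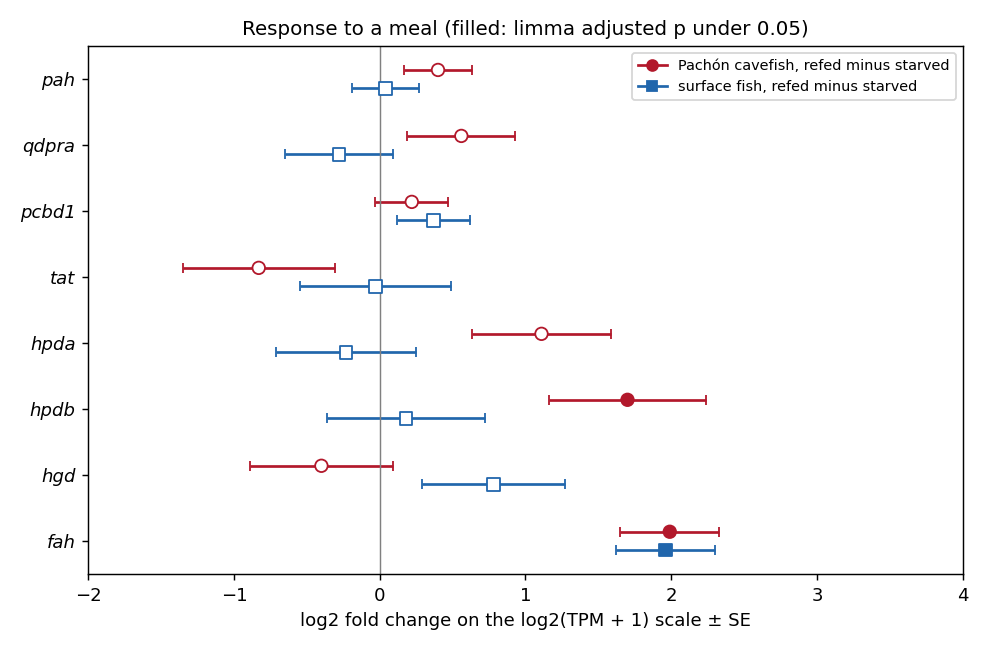
Log2 fold change of each gene after the meal on the x axis, with its SE as bars, for Pachón cavefish (circles) and surface fish (squares); filled symbols mark a limma adjusted p under 0.05. The gene fah lies at 1.99 and 1.96, hpdb at 1.70 in Pachón cavefish, and the other symbols are open; the surface value of hpdb rests on levels near 0.

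Neighbours of hpdb were looked up in the RefSeq gene table of the AstMex3_surface assembly, which is used here only for gene order. All 8 symbols occur in that table, and of the 5 protein-coding genes on either side of hpdb, 7 of 10 were matched to the TPM table by symbol. Of these, myl7, aplnra, fzd10, piwil1 and stx2b stayed under 1 TPM in every library of both populations. The gene tbc1d10aa was at 22.7, 19.6 and 15.2 TPM in refed Pachón livers and 4.73, 8.3 and 8.24 TPM in starved ones. It was at 7.77 to 10.8 TPM in refed surface livers and 6.08 to 10.6 TPM in starved ones. Glucokinase, gck, was expressed in both populations, at 15.1 to 117 TPM in refed Pachón livers and 2.58 to 150 TPM in refed surface livers. None of the 7 matched neighbours had Pachón libraries that were all high and surface libraries that were all near 0. The genes directly beside hpdb on either side were among those not matched, so their levels were not seen.

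**Figure D3:**
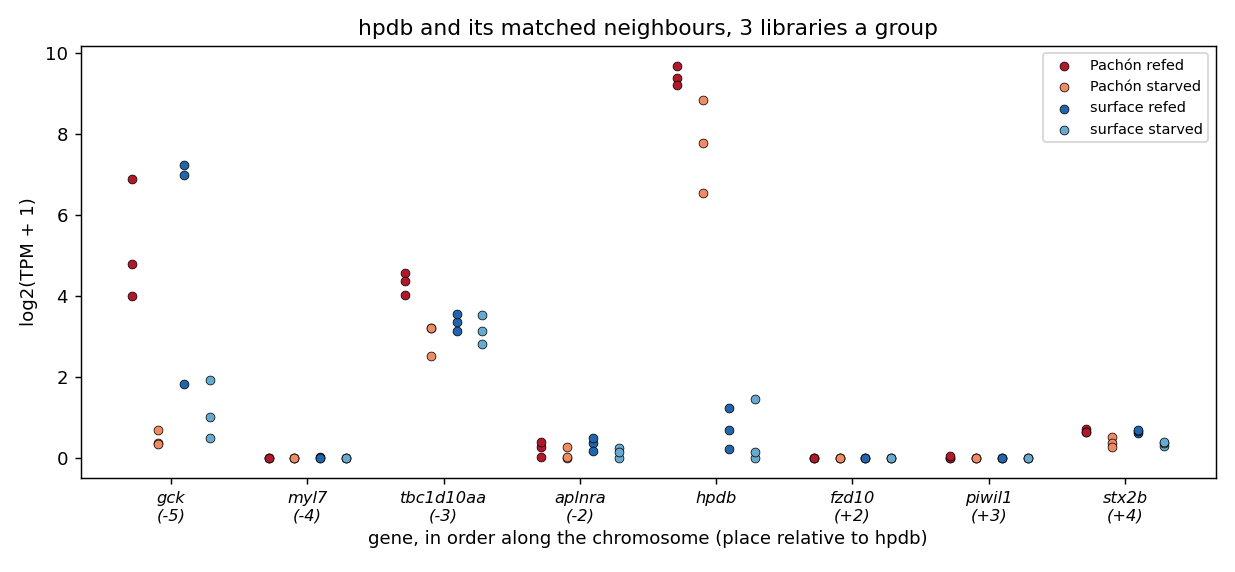
Levels of hpdb and its 7 matched neighbours, in chromosome order on the x axis with the place of each relative to hpdb, as log2(TPM + 1) on the y axis; points are the 3 libraries of each group. Among them hpdb alone separates the populations in both feeding states, tbc1d10aa does so among refed fish, and 5 neighbours stay under 1 TPM throughout.

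The genes most like hpdb were ranked by Pearson r of log2(TPM + 1) over 12 libraries, among 6516 genes with a symbol and at least 5 TPM on average in a group. The highest were kif1ab (r = 0.988), mt2 (1 of many) (r = 0.987), syt15 (r = 0.981), SPTBN4 (r = 0.981) and serpine3 (r = 0.979). These coefficients mainly reflect that the libraries fall into 2 populations and are no test. The metallothionein gene mt2 (1 of many) was at 2926 to 3382 TPM in refed Pachón, 1869 to 2603 TPM in starved Pachón, 215 to 376 TPM in refed surface and 173 to 315 TPM in starved surface livers. It was thus expressed in both populations. The kinesin gene kif1ab was at 30.2 to 43.9 TPM in refed Pachón and 11.1 to 36.7 TPM in starved Pachón livers, and at 0.37 TPM or less in every surface library.

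Markers of other cell types were set beside the hpdb values, and several separated the populations. Of 18 pigment cell markers, 15 stayed under 1 TPM in every library, and dct, tyrp1b, slc24a5 and tyr, which act in melanin synthesis, were listed at 0 in all. The other 3 differed in direction. The cyclohydrolase gene gch2 was lower in Pachón cavefish in both states, and slc45a2 was at 0.25 to 0.36 TPM in refed Pachón against 0.44 to 2.79 TPM in refed surface livers, and 0.66 to 1.32 TPM in starved Pachón against 2.24 to 3.66 TPM in starved surface livers. The xanthine dehydrogenase gene xdh was at 89 to 142 TPM in refed Pachón against 41.4 to 47.1 TPM in refed surface livers. Of these, limma called gch2 lower in both states and xdh higher among refed fish. The summed TPM of the list overlapped between the populations, at 95.4 to 149 in refed Pachón, 66.1 to 79.3 in starved Pachón, 87.1 to 165 in refed surface and 61.6 to 117 in starved surface livers. Of 8 kidney tubule markers, 7 stayed under 1 TPM, among them the receptor genes cubn and lrp2a. Their sum was 5.27 to 6.09 TPM in refed Pachón, 5.94 to 6.53 TPM in starved Pachón, 1.29 to 2.89 TPM in refed surface and 1.67 to 2.11 TPM in starved surface livers. The sum was made up mostly of pdzk1ip1, the 1 marker of that list that was tested. That gene was called higher in Pachón cavefish in both states, by 1.72 among starved and 1.23 among refed fish. Of 11 intestine markers, anpepb was at 15.5 to 29.9 TPM in refed Pachón against 1.22 to 2.32 TPM in refed surface livers, and 30.7 to 34.3 TPM in starved Pachón against 0 to 2.74 TPM in starved surface livers. It was called higher in Pachón cavefish in both states, while 1 of 4 rows named apoa4a (1 of many), ENSAMXG00000039639, was called lower in both. The summed intestine list overlapped between the populations, at 418 to 1652 TPM in refed Pachón against 209 to 1020 TPM in refed surface livers, and 195 to 528 TPM in starved Pachón against 87.3 to 1385 TPM in starved surface livers. Of 4 adipocyte markers, cidec was called lower in Pachón cavefish in both states, at 8.51 to 9.93 TPM in refed Pachón against 17.5 to 28.7 TPM in refed surface livers. The adipocyte sum was 79.6 to 241 TPM in refed Pachón against 220 to 596 TPM in refed surface livers, and 120 to 211 TPM in starved Pachón against 229 to 394 TPM in starved surface livers. The sums of the erythrocyte, macrophage and exocrine pancreas lists overlapped in both states. The pancreas row CPA1 (1 of many), ENSAMXG00000011629, was however called lower in refed Pachón than in refed surface fish. The other row of that name, ENSAMXG00000011639, overlapped among refed fish, at 0.38 to 2.42 TPM in Pachón and 0.75 to 1.52 TPM in surface livers. The part of these markers in the hpdb values was not tested.

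At the last step, fah (ENSAMXG00000020041) encodes fumarylacetoacetase, which cuts fumarylacetoacetate into fumarate and acetoacetate. Levels of fah were 395, 312 and 374 TPM in refed Pachón livers and 93.4, 89.1 and 86.4 TPM in starved Pachón livers. In surface fish they were 118, 217 and 240 TPM in refed livers and 28.9, 73.7 and 46.2 TPM in starved livers. In each population every refed library stood above every starved one. The rise of fah was 1.99 ± 0.34 in Pachón cavefish (limma adjusted p = 0.0014) and 1.96 ± 0.34 in surface fish (limma adjusted p = 0.0037). The Pachón call stood under all 22 alternatives. The surface call stood under 21 and ended when the 6 surface libraries were fitted alone (limma adjusted p = 0.0504). The difference between the responses was 0.02 ± 0.49 (limma adjusted p = 0.987). It was below 0 under quantile normalization, rescaling without the 20 most abundant genes and median-of-ratios scaling.

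Levels of fah also stood higher in every Pachón library than in every surface library of the same feeding state. The differences were 0.94 ± 0.34 among starved fish (limma adjusted p = 0.0954) and 0.96 ± 0.34 among refed fish (limma adjusted p = 0.0878), and neither was called. Starved surface replicate 2 had the lowest hepatocyte marker sum of all libraries and the highest fah of its group, at 73.7 TPM. Without it both differences were called, at 1.27 ± 0.32 among starved (limma adjusted p = 0.0333) and 0.96 ± 0.29 among refed fish (limma adjusted p = 0.0464). No refed library was left out in that fit, and the refed estimate stayed at 0.96. Median-of-ratios scaling also gave a call among starved fish, at 1.07 ± 0.32 (limma adjusted p = 0.0464).

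In the first step, pah (ENSAMXG00000014191) encodes phenylalanine hydroxylase. Its levels were 1040, 1181 and 1294 TPM in refed Pachón livers and 720, 1025 and 940 TPM in starved Pachón livers. They were 699, 812 and 716 TPM in refed surface livers and 988, 603 and 630 TPM in starved surface livers. Refed Pachón libraries stood above all others for pah. The difference from refed surface fish was 0.66 ± 0.23 (limma adjusted p = 0.0876) and that from starved Pachón cavefish 0.40 ± 0.23 (limma adjusted p = 0.228), so neither was called.

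The cofactor genes qdpra (ENSAMXG00000029100), for dihydropteridine reductase, and pcbd1 (ENSAMXG00000030052), for a carbinolamine dehydratase, were not called in any comparison. Levels of qdpra were 206, 153 and 194 TPM in refed Pachón livers and 64, 211 and 141 TPM in starved Pachón livers. They were 186, 139 and 124 TPM in refed surface livers and 199.76, 183 and 155 TPM in starved surface livers, and the groups overlapped in every comparison. The change of qdpra after the meal was 0.56 ± 0.37 in Pachón livers (limma adjusted p = 0.289) and -0.28 ± 0.37 in surface livers (limma adjusted p = 0.652). Levels of pcbd1 were 65.8, 64.3 and 53.2 TPM in refed Pachón and 68.8, 41.4 and 49.9 TPM in starved Pachón livers, against 56.1, 37.5 and 60.2 TPM in refed surface and 39.9, 40.4 and 36.2 TPM in starved surface livers. Starved Pachón libraries were all just above starved surface libraries for pcbd1, with a difference of 0.42 ± 0.25 (limma adjusted p = 0.29).

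Tyrosine aminotransferase is encoded by tat (ENSAMXG00000001000), a gene known in mammals for its induction by glucocorticoids. Its levels were 846, 481 and 774 TPM in refed Pachón livers and 787, 1566 and 1433 TPM in starved Pachón livers. Refed surface livers had 898, 572 and 819 TPM and starved surface livers 1834, 331 and 738 TPM. The starved surface libraries alone spanned more than 5 times between lowest and highest, and refed and starved libraries overlapped in both populations. The change after the meal was -0.83 ± 0.52 in Pachón livers (limma adjusted p = 0.264) and -0.03 ± 0.52 in surface livers (limma adjusted p = 0.981).

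The homogentisate dioxygenase gene, hgd (ENSAMXG00000041733), opens the aromatic ring. It was at 794, 521 and 671 TPM in refed Pachón livers and 948, 904 and 748 TPM in starved Pachón livers. It was at 996, 823 and 550 TPM in refed surface livers and 660.4, 168 and 798 TPM in starved surface livers. Groups overlapped in every comparison for hgd. Its population difference was 0.95 ± 0.49 among starved fish (limma adjusted p = 0.225) and -0.23 ± 0.49 among refed fish (limma adjusted p = 0.791). The change after the meal was -0.40 ± 0.49 in Pachón livers (limma adjusted p = 0.587) and 0.78 ± 0.49 in surface livers (limma adjusted p = 0.296), and the difference of -1.18 ± 0.69 was not called (limma adjusted p = 0.405).

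Single libraries stood low for several of the genes at once. Starved Pachón replicate 1 had the lowest value of its group for pah, qdpra, tat, hpda and hpdb, but not for pcbd1, hgd and fah. Starved surface replicate 2 was lowest of its group for pah, tat, hpda and hgd, and had the highest fah of its group. No library was thus low for all 8 genes.

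In counts, 2 of the 8 genes rose in Pachón cavefish after the meal, fah and hpdb, and none fell. Over all tested genes 22.9% rose and 7.64% fell in that comparison, so the share of the 8 genes that rose was near the background. In surface fish fah alone rose and none fell, with hpdb near 0, beside 9.03% and 9.68% of all tested genes. The median change of the 8 genes was 0.48 in Pachón cavefish and 0.11 in surface fish, beside 0.17 and -0.04 over all tested genes. The surface count and median include hpdb, whose change there rests on levels near 0.

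Between the populations, limma called none of the 7 genes other than hpdb in either state. Of the whole set tested, 6.04% were called higher and 7.02% lower in starved Pachón cavefish, and 9.82% and 3.62% in refed ones. At an unadjusted limma p under 0.05 there were 1 of the 7 genes among starved and 2 among refed fish. Over all 13157 tested genes, 3811 and 3886 stood under that limit. The median difference of the 7 genes was 0.42 among starved and 0.31 among refed fish, beside -0.13 and 0.18 over all tested genes. For the difference in meal response limma called 0 of the 7 genes, where 0.0608% of all tested genes had a larger and 0.0076% a smaller response in Pachón cavefish. At an unadjusted limma p under 0.05 there were 0 of the 7, beside 2176 of all 13157 genes. The excess of higher calls depended on scaling. In the Pachón meal comparison 75% of calls were higher, against 53.3% under quantile normalization and 56.4% under median-of-ratios scaling. Among refed fish it was 73.1%, against 51.5% and 54.8%. Among starved fish 56.2% were higher with median-of-ratios scaling in place of 46.2%, and in the surface meal comparison 60.1% without the 20 most abundant genes in place of 48.3%. These scalings moved the median of all genes by up to -0.21 for the Pachón meal, -0.18 among refed fish and -0.27 for the difference in meal response, where 88.9% of 9 calls were higher, against 44.4% with quantile normalization, 100% without the 20 most abundant genes and 46.2% with median-of-ratios scaling.

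Beyond the chain, 21 tested enzymes of a wider list make or regenerate the cofactor, or act on aromatic amino acids and their products. After the meal 8 of them rose and 1 fell in Pachón cavefish, and 5 rose and 1 fell in surface fish. Beside these stand 22.9% risen and 7.64% fallen of all genes in Pachón cavefish, and 9.03% and 9.68% in surface fish. Their median change was 0.47 in Pachón cavefish and 0.28 in surface fish, beside 0.17 and -0.04 over all genes. The 8 that rose and these medians include hpdl, which passed the minimum for testing only through refed Pachón livers, where it is high. Tetrahydrobiopterin is made by GTP cyclohydrolase, 6-pyruvoyltetrahydropterin synthase and sepiapterin reductase. The reductase gene sprb was at 21.8, 18.7 and 14.2 TPM in refed Pachón livers and 4.85, 4.28 and 3.63 TPM in starved ones, a rise of 1.86 ± 0.27 (limma adjusted p = 0.000578). Its change in surface fish was 0.62 ± 0.27 and was not called (limma adjusted p = 0.14).

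Among the other enzymes the tautomerase gene ddt rose by 1.63 ± 0.27 in Pachón cavefish and by 1.02 ± 0.27 in surface fish, where the call ended without any of 4 surface libraries or with surface fish fitted alone. The monoamine oxidase gene mao rose by 2.27 ± 0.54 in Pachón cavefish. The paralogues of tryptophan dioxygenase moved in opposite directions. The gene tdo2a rose by 1.69 ± 0.42 in Pachón cavefish and 1.66 ± 0.42 in surface fish, while tdo2b fell by 1.18 ± 0.38 in Pachón cavefish and by 1.37 ± 0.38 in surface fish. Levels of tdo2a were 297 to 459 TPM in refed and 70.5 to 144 TPM in starved Pachón livers, and those of tdo2b 172 to 506 TPM in refed and 519 to 905 TPM in starved Pachón livers. In surface fish the tdo2a call ended without refed replicate 1 or starved replicate 2, and with surface fish fitted alone, and the tdo2b call without any of 4 surface libraries or without the filter on low values. The Pachón value of tdo2b was picked after its values were seen, and alternatives were not computed for it. These calls had limma adjusted p of 0.0338 or lower. The HPD-like gene hpdl, a mitochondrial relative of the dioxygenase, was at 4.25, 1.41 and 1.18 TPM in refed Pachón livers and 0.06 TPM or less in starved ones (1.54 ± 0.30, limma adjusted p = 0.00269). In surface fish its refed libraries, at 0.92, 0.19 and 0.5 TPM, also all stood above the starved ones, at 0, 0.17 and 0.02 TPM, and the change of 0.51 ± 0.30 was not called (limma adjusted p = 0.267). Only refed Pachón libraries reached 1 TPM for hpdl, so it passed the minimum for testing through the group where it is high. Its Pachón call is therefore a description. The gene dropped out of fits that omit a refed Pachón library and of that with a minimum of 5 TPM. The cyclohydrolase gene gch1 rose by 1.26 ± 0.35 in Pachón cavefish (limma adjusted p = 0.0192), a call that ended under 4 of 22 alternatives. In surface fish cbr1 rose by 1.39 ± 0.26 (limma adjusted p = 0.00507) under all 22. There gchfr, which encodes the feedback regulator of the cyclohydrolase, rose by 1.13 ± 0.29 and pts by 1.15 ± 0.31 (limma adjusted p = 0.0204 and 0.0249), calls that ended under 4 and 3 alternatives.

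**Figure D4:**
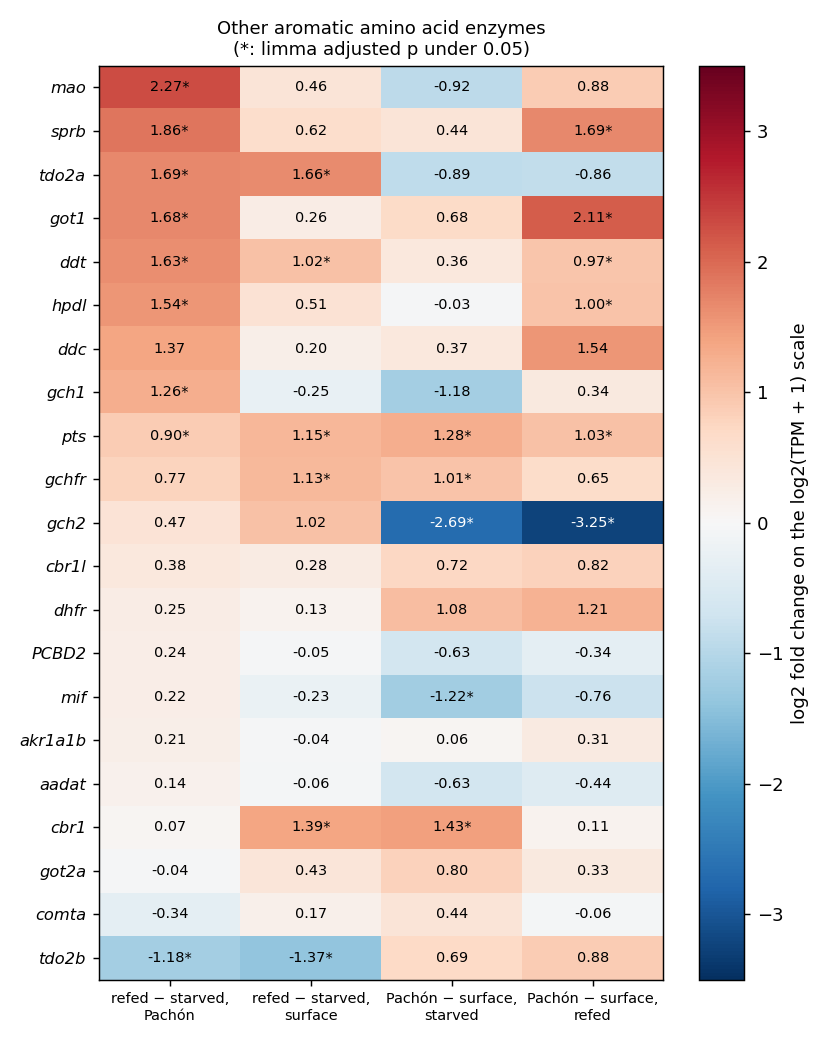
Log2 fold changes of the 21 tested enzymes of the wider list (rows) in both meal and both population comparisons (columns), with an asterisk where the limma adjusted p was under 0.05. The asterisks of hpdl are descriptions, since only refed Pachón libraries reached 1 TPM for it. The gene gch2 is lowest in both population columns, at -2.69 and -3.25, and sprb is higher after the meal in Pachón cavefish (1.86) and in refed Pachón than in refed surface fish (1.69).

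Between the populations, 3 of these 21 enzymes were called higher and 2 called lower in starved Pachón cavefish, and 5 higher and 1 lower in refed ones. Beside these stand 6.04% and 7.02% of all genes among starved fish, and 9.82% and 3.62% among refed fish. The cyclohydrolase paralogue gch2, also 1 of the pigment cell markers above, was at 5.98, 6.39 and 7.12 TPM in refed Pachón livers against 116, 66.4 and 44.4 TPM in refed surface livers. Among starved fish it was at 5.76, 3.94 and 3.76 TPM in Pachón and 29.9, 21.3 and 60.9 TPM in surface livers. The differences of -3.25 ± 0.39 and -2.69 ± 0.39 stood under all 22 alternatives (limma adjusted p = 0.000358 and 0.00136). The other cyclohydrolase gene, gch1, was not called between the populations (limma adjusted p = 0.567 among refed and 0.0501 among starved fish). It was at 21.7 to 22.9 TPM in refed Pachón and 16.3 to 18.1 TPM in refed surface livers, and 6 to 13.1 TPM in starved Pachón and 12.6 to 38.4 TPM in starved surface livers. The population comparisons of sprb gave 1.69 ± 0.27 among refed fish (limma adjusted p = 0.0022) and 0.44 ± 0.27 among starved fish (limma adjusted p = 0.309). The synthase gene pts was higher in Pachón cavefish by 1.28 ± 0.31 among starved fish (limma adjusted p = 0.0202) and 1.03 ± 0.31 among refed fish (limma adjusted p = 0.0484), but the call ended under 3 alternatives among starved and 16 among refed fish. The carbonyl reductase gene cbr1 was higher in starved Pachón cavefish by 1.43 ± 0.26 (limma adjusted p = 0.00482). Among starved fish mif, the relative of ddt, was lower in Pachón cavefish (-1.22 ± 0.27, limma adjusted p = 0.0136) and gchfr higher (1.01 ± 0.29, limma adjusted p = 0.0426), calls that ended under 2 and 13 of 22 alternatives. Among refed fish the aspartate aminotransferase gene got1 was higher by 2.11 ± 0.55, ddt by 0.97 ± 0.27 and hpdl by 1.00 ± 0.30 (limma adjusted p = 0.0269, 0.0356 and 0.0475). These calls ended under 7 of 22, 12 of 22 and 16 of 17 alternatives. That of hpdl is again a description, since only refed Pachón libraries reached 1 TPM, and the count of 5 higher includes it. For the difference in meal response limma called 0 of the 21, beside 0.0608% higher and 0.0076% lower of all genes. At an unadjusted limma p under 0.05 there were 5 of the 21, hpdl among them, beside 2176 of all 13157 genes.

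The end products pass into other pathways. Of 7 tested genes, mostly of ketone body metabolism, 1 rose and none fell after the meal in Pachón cavefish, beside 22.9% and 7.64% of all genes. In surface fish limma called 0 of the 7, beside 9.03% risen and 9.68% fallen of all genes. At an unadjusted limma p under 0.05 there were 2 of the 7 in surface fish, beside 4350 of all 13157 genes. The fate of fumarate was not examined. The thiolase gene acat2 rose by 3.52 ± 0.73 in Pachón cavefish (limma adjusted p = 0.00377). Its change in surface fish was 2.04 ± 0.73 and was not called (limma adjusted p = 0.0719), and neither was the difference between these responses. The ketone body dehydrogenase gene bdh1 was lower in Pachón cavefish, at 3.56 to 4.39 TPM against 8.25 to 9.35 TPM among refed and 2.89 to 4.69 TPM against 6.67 to 9.5 TPM among starved fish. These differences were -1.04 ± 0.20 and -0.97 ± 0.20 (limma adjusted p = 0.00553 and 0.00864).

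Of 8 tested genes listed for aromatic amino acid transport, 1 fell and none rose in Pachón cavefish after the meal, beside 7.64% and 22.9% of all genes. In surface fish 1 rose and 3 fell, beside 9.03% and 9.68%. The neutral amino acid transporter gene slc43a2a was at 0.65, 0.6 and 0.49 TPM in refed Pachón livers and 32, 2.67 and 6.05 TPM in starved ones, and at 0.53, 0.36 and 0.52 TPM in refed surface livers and 21.8, 16.9 and 92.4 TPM in starved ones. It fell by 2.59 ± 0.73 in Pachón cavefish (limma adjusted p = 0.0191), a call that ended without refed replicate 1 or 3 or starved replicate 1. In surface fish slc43a2a fell by 4.52 ± 0.73 (limma adjusted p = 0.00245) under all 22 alternatives. Only starved libraries reached 1 TPM for slc43a2a, so it passed the minimum for testing through the groups where it is high. Both of its calls are therefore descriptions, and the counts of fallen transport genes include them. In surface fish slc7a8a fell by 1.13 ± 0.21 and slc3a2b by 0.80 ± 0.25, and slc3a2a rose by 1.27 ± 0.35 (limma adjusted p = 0.00529, 0.0471 and 0.0272). These calls ended under 1 of 21, 17 of 21 and 4 of 22 alternatives. The gene slc16a10, picked after its values were seen, encodes a transporter that carries aromatic amino acids. It was at 15.9 to 16.7 TPM in refed Pachón, 16.7 to 26.3 TPM in starved Pachón, 9.3 to 17.1 TPM in refed surface and 7.97 to 15 TPM in starved surface livers, and was not called in any comparison. Among starved fish limma called 0 of the 8 between the populations, beside 6.04% higher and 7.02% lower of all genes. At an unadjusted limma p under 0.05 there were 3 of the 8, beside 3811 of all 13157 genes. Among refed fish 1 was higher in Pachón cavefish and none lower, beside 9.82% and 3.62% of all genes. It was slc7a8a, a call that ended under 13 of 21 alternatives.

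Of 15 liver transcription factor genes, 1 rose and 4 fell in Pachón cavefish after the meal, beside 22.9% and 7.64% of all genes, and 1 rose and none fell in surface fish, beside 9.03% and 9.68%. The gene that rose in both was cebpa. The forkhead gene foxo1a was at 0.47, 0.18 and 0.35 TPM in refed Pachón livers and 16.6, 33.4 and 30.4 TPM in starved ones, and fell by 4.33 ± 0.95 (limma adjusted p = 0.00541) under all 22 alternatives. In surface fish its libraries overlapped, at 0.18 to 14.2 TPM in refed and 1.43 to 24.9 TPM in starved livers, and the change of -1.49 ± 0.95 was not called (limma adjusted p = 0.306). The receptor row nr3c1 fell by 0.79 ± 0.24 in Pachón cavefish (limma adjusted p = 0.0257), a call that ended under 5 of 22 alternatives. The other receptor row, NR3C1, overlapped there, at 5.8 to 6.14 TPM in refed and 5.64 to 6.96 TPM in starved Pachón livers. The gene cebpb fell by 1.56 ± 0.36 in Pachón cavefish (limma adjusted p = 0.00689). For the difference in meal response limma called 0 of the 15, beside 0.0608% higher and 0.0076% lower of all genes. At an unadjusted limma p under 0.05 there was 1 of the 15, beside 2176 of all 13157 genes. Between the populations 1 of the 15 was lower and none higher in starved Pachón cavefish, beside 7.02% and 6.04% of all genes. It was hnf4a, a call that ended under 15 of 22 alternatives. Among refed fish foxa2 was higher in Pachón cavefish, by 1.17 ± 0.23 (limma adjusted p = 0.00605), and the glucocorticoid receptor row NR3C1 was lower, a call that ended under 12 of 22 alternatives. The row nr3c1 overlapped among refed fish, at 7.62 to 12.2 TPM in Pachón and 9.31 to 12.9 TPM in surface livers. Of all genes, 9.82% were called higher and 3.62% lower in refed Pachón cavefish.

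Tyrosine is also the start of melanin and catecholamines. Of 12 genes of those routes 10 stayed under 1 TPM in every library and 2 were tested. The gene th2, named after tyrosine hydroxylase, was at 24.2, 18.1 and 5.42 TPM in refed Pachón livers and 0.62, 1.06 and 0.64 TPM in starved ones. It was at 2.39, 1.02 and 0.22 TPM in refed surface livers and 1.61, 0.53 and 1.25 TPM in starved ones. Refed Pachón libraries stood above all others for th2. The gene th was at 0.18 TPM or less in every library, and which reaction the th2 product carries out was not tested. Expression of th2 rose by 3.05 ± 0.48 in Pachón cavefish after the meal (limma adjusted p = 0.000866) and was higher by 2.85 ± 0.48 in refed Pachón than in refed surface fish (limma adjusted p = 0.00288), and both calls stood under all 22 alternatives. The difference between the meal responses of th2 was 3.08 ± 0.68 and was not called (limma adjusted p = 0.128).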

How the data were processed

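Gene levels were the TPM (length-scaled transcript abundances) deposited by the authors. The submitters' processing notes name bcl2fastq 2.18, STAR 2.6.1c, Bowtie2 and RSEM; for the genome build and strand, nothing is given in the sources used here. All 12 liver columns were matched to their samples by name, and no 2 libraries held identical values. ChIP-seq libraries of the study (6) were left out. Values were tested as log2(TPM + 1), which understates the change of low genes, with limma 3.58.1 in R 4.3.3: 4 group means, a mean-variance trend, 8 residual and 3.303 prior degrees of freedom. A minimum of 1 TPM in 3 or more libraries left 13157 genes, and p-values were adjusted by the Benjamini-Hochberg method. The procedure was tested on simulated data. Beside the 8 genes, the text names up to 6 called genes of each pathway list and comparison with the smallest p, and the 5 genes most like hpdb. Members and lists were chosen with earlier results of these data known. Alternatives changed the pseudocount, filter, scaling, libraries, trend and replicate block. P-values weigh a difference between groups against the spread between libraries, which was shared over the 4 groups. No sequences were at hand for these genes, and none are printed. One gene of a pathway list is not reported here, and slc16a10 and the Pachón value of tdo2b were added to the rule's names.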

Additional observations from a re-analysis of the deposited data

How the results depend on the processing

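Counts of called genes among the 8 were lower in Pachón cavefish after the meal, at 1 in place of 2, with a pseudocount of 0.1, no filter, rescaling without the 20 most abundant genes or median-of-ratios scaling, and 1 to 2 with 1 library left out. The gene lost was hpdb. Leaving out both starved surface replicate 2 and refed Pachón replicate 1, chosen after seeing the data, also gave 1. In surface fish the count was 0 in place of 1 with surface libraries alone, and 1 with any library left out. Between the populations the count among the 7 genes other than hpdb was 1 in place of 0 among starved fish under median-of-ratios scaling and without both libraries. It was 0 to 1 with 1 library left out in either state. The cause was not tested. Of all genes, 2461 were called in surface fish after the meal, against 837 with surface libraries alone and 1415 without refed surface replicate 3. Among starved fish 1719 of 13157 tested genes were called, against 969 of 7747 at a minimum of 5 TPM. The count was 1034 without starved Pachón replicate 1 and 843 without replicate 3. Among refed fish 1768 of 13157 were called, against 1017 of 7747 at 5 TPM. The count was 1038 and 1162 without refed Pachón replicate 2 and 3, and 1103 without refed surface replicate 2. For the difference in meal response 9 were called, against 0 to 52. No called value changed sign. Uncalled signs turned for pcbd1 in the Pachón meal comparison (-0.15 with quantile normalization, -0.07 with median-of-ratios scaling). In the surface meal comparison they turned for pah (-0.0047 with quantile normalization), hpda (0.02 with quantile normalization) and tat (0.09 without the 20 most abundant genes, 0.03 with median-of-ratios scaling). Without both libraries, pah was -0.09 and hpdb -0.0046. With 1 library left out, surface changes ranged from -0.63 to 0.60 for tat, -0.09 to 0.26 for pah, -0.63 to 0.09 for hpda and -0.09 to 0.64 for hpdb, the refed population difference of tat from -0.33 to 0.11, and the difference in meal response from -0.31 to 0.35 for fah and -0.35 to 0.05 for pcbd1. That of fah was -0.04 with quantile normalization, -0.12 without the 20 most abundant genes, -0.33 with median-of-ratios scaling and -0.38 without both libraries. With the group mean of each gene taken off, same-numbered libraries of different groups correlated at -0.245 to 0.123. On that measure the library of the other group most like each had its own number for 0 and 0 of 6 libraries in the meal comparisons. In the population comparisons it did so for 4 and 5 of 6. Whether the numbers pair libraries across populations was not tested, and the main fit took no pairs. The replicate block left the counts at 2 and 1 of the 8 genes in the meal comparisons. They were 0, 0 and 0 of the 7 genes other than hpdb in the rest. Over all genes it gave 3535, 1911, 1298, 1352 and 0 calls. With TPM the depth is unknown, so no floor can be set for surface hpdb.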
